A study of Mus musculus with 26 samples.

Results

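Small RNAs were measured in the ventral hippocampus (vHC) of mice killed 45 min after the start of a 6 min swim in water of 18 °C and in homecage controls. All animals were C57BL/6J males of 2 to 3 months and the labels name no transgene or drug in either group. Per the methods, both groups were single-housed beforehand. The comparison used the 14 libraries whose labels name vHC (8 control, 6 Swim45min) of 26 in the series, and the other 12 came from dorsal hippocampus (dHC). Each library was prepared from both hemispheres of bulk tissue in 1 of 3 processing blocks, which held 4, 2 and 2 control and 2, 2 and 2 swim libraries. The labels do not tie libraries to animals, so p-values describe the spread between libraries. In bulk tissue, fewer cells of a type and less RNA per cell cannot be told apart.

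MicroRNAs (miRNAs) are short RNAs that repress messenger RNAs by pairing with them, mostly through the seed near their 5′ end. miRNAs with the same seed form a family with overlapping targets, while neighbouring precursors on a chromosome form a cluster that is often cut from a common transcript. In the hippocampus, neuronal activity is known to induce the precursors of mir-132 and mir-212, and cellular stress is known to favour cleavage of tRNAs in the anticodon loop, which leaves 5′ and 3′ fragments.

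The deposited table lists a miRNA by its precursor, so the values combine both arms of the hairpin. Mature sequences from RefSeq (build GRCm38.p6) are shown for the let-7 family, the largest tested family by number of members, with the seed (bases 2 to 8) in capitals. Of its 11 tested members, 10 carried the same seed and let-7j differed from it in the table.
let-7a-5p: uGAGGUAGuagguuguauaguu
let-7b-5p: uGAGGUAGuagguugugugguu
let-7c-5p: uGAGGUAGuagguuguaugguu
let-7d-5p: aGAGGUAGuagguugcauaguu
let-7e-5p: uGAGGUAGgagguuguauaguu
let-7f-5p: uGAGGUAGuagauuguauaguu
let-7g-5p: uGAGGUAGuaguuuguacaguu
let-7i-5p: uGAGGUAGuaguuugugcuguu
let-7j: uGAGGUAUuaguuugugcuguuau
let-7k: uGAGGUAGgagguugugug
mir-98-5p: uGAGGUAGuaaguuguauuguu

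Both arms of the 3 miRNAs with the smallest p are shown next, followed by the arms known to be the main ones of mir-203, mir-381, mir-300 and mir-410 and by those of the activity-regulated mir-132 and mir-212. mir-381, mir-300 and mir-410, which lie in a cluster on chromosome 12, have different seeds, whereas mir-132 and mir-212 share theirs.
mir-7047-5p: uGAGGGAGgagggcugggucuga
mir-7047-3p: uCACCCUCacccuuccuccuucc
mir-6944-5p: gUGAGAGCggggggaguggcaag
mir-6944-3p: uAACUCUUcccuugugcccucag
mir-5129-5p: aUGUGGGGgcauugguauuuuc
mir-5129-3p: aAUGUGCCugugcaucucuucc
mir-203-3p: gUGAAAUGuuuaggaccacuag
mir-381-3p: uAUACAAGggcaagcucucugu
mir-300-3p: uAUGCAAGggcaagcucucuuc
mir-410-3p: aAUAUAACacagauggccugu
mir-132-3p: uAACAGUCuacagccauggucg
mir-212-3p: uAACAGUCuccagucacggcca

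The libraries held between 1658322 and 3165488 miRNA counts, with medians of 2323952 in controls and 2600309 after swim, and the log10 totals did not separate the groups (two-sided exact permutation p = 0.694, n = 8 and 6). Of miRNAs known from neurons, mir-9 took 108000 to 134000, mir-128 took 40400 to 56400 and mir-124 took 31400 to 49900 CPM, which scales the counts of a library to the same miRNA total. Of markers of other organs, mir-208a and mir-208b of heart stayed at or below 1.05 CPM and mir-122 of liver between 5.43 and 20.4 CPM, whereas mir-1a, best known from muscle, was present at 658 to 1110 CPM. By principal components, control library 1 stood apart from the other 13. After block was removed, its first principal component score was −10.9 against −3.33 to 4.87 in the others, so many of the values below are also given without it. By median correlation with the other libraries, swim library 5 was the lowest at 0.9826, followed by control library 1 at 0.9842. Most values below are not given without swim library 5, although the counts at a small p depended on it more.

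In the vHC at 45 min, no miRNA, family, cluster, tRNA or rRNA entry passed the threshold of an adjusted p of 0.05 between swim and control. With precursor copies summed, 375 of 962 miRNAs were abundant enough to be tested and 0 were called by edgeR's quasi-likelihood test with block as covariate (smallest Benjamini-Hochberg adjusted p = 0.513). At an unadjusted p under 0.05 there were 33 miRNAs, 8.80% of those tested, where the threshold alone would give 18.75. Of these, 12 (3.20%) lay higher and 21 (5.60%) lower after swim, while over all 375 the fold changes were even, with 50.1% above and 49.9% below 0. DESeq2 also called 0 and put 37 under the same unadjusted limit. The count was not stable, however. It was 14 with no covariate, 7 with 2 surrogate variables in place of block, 9 without swim library 5 and 59 without control library 7. The 33 are therefore not read as an excess over 18.75. In none of the 375 did the swim and control libraries fail to overlap.

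Although no call was made, the libraries limited how large a difference could have been missed. The median standard error of a log2 fold change was 0.15. For 365 of the 375 miRNAs the 95% interval lay within a 2-fold change in either direction and for 253 within 1.5-fold. Among the 5 most abundant miRNAs, for instance, mir-9 had a log2 fold change of −0.05 ± 0.10 (SE), mir-26a of −0.05 ± 0.09, mir-128 of −0.10 ± 0.11, mir-124 of 0.06 ± 0.09 and mir-125b of −0.12 ± 0.10. The levels of all 5 overlapped between the groups, although for mir-9 and mir-26a 3 of the 6 swim libraries lay below every control. The values were −0.02 for mir-9 and mir-26a and −0.06 for mir-128 and mir-125b without control library 1.

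The smallest p belonged to mir-7047. Its level ran from 7.95 over a median of 12.8 to 15.1 CPM in controls and from 2.48 over 8.49 to 14.7 CPM after swim. The highest swim library therefore reached into the upper controls, while 2 swim libraries of block 1 and 1 of block 2 lay below every control. The log2 fold change was −0.71 ± 0.21 (SE; unadjusted p = 0.00298, adjusted p = 0.513), and the differences within blocks 1 to 3 were −1.20, −0.66 and −0.29. Without control library 1 the value was −0.66. At this level the lowest libraries rest on few reads, and mir-7047 was too rare to be tested at the stricter minimum count of 50. The same holds for mir-5129 and mir-183, named below.

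mir-6944 lies in an intron of Dbn1, the gene of the dendritic spine protein drebrin (GRCm38, chr13:55477681-55477776, minus strand). It ranged from 20.5 to 32.9 CPM in controls with a median of 25.6, and from 14.1 to 25.9 CPM after swim with a median of 16.4. The 4 swim libraries of blocks 2 and 3 lay below all controls and those of block 1 among them. The log2 fold change was −0.44 ± 0.15 (unadjusted p = 0.0095, adjusted p = 0.513). mir-5129, in an exon of Zeb2 (chr2:45023100-45023177, minus strand), had medians of 18.98 CPM in controls and 12.2 CPM after swim and a log2 fold change of −0.47 ± 0.17, again with overlapping groups.

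Toward higher values, mir-143, a miRNA of vessel wall smooth muscle, ran from 8086 over a median of 12704 to 15712 CPM in controls and from 11240 over 17773 to 19435 CPM after swim. The swim libraries of blocks 1 and 3 lay above all controls, and those of block 2 lay among them. Its log2 fold change of 0.33 ± 0.13 (unadjusted p = 0.016, adjusted p = 0.513) was made of 0.58, 0.04 and 0.33 in the 3 blocks. Without control library 1 the value was 0.27, and with 2 surrogate variables in place of block it was 0.068. Of the other vessel miRNAs of the list, mir-126a stood at 0.27 and mir-145a at 0.04. All 3 tested of 5 were thus above 0, where 50.1% of all 375 miRNAs were, and the list median of 0.27 was the value of mir-126a. The summed level of the list, mir-143 included, was 12838 to 25711 CPM in controls and 20149 to 30158 CPM after swim. The part of vessel content in these values was not tested.

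mir-203, best known from skin, had medians of 152.5 CPM in controls and 182 CPM after swim and a log2 fold change of 0.35 ± 0.14, which was 0.30 without control library 1 and 0.14 with 2 surrogate variables in place of block. mir-381, a brain-enriched miRNA of the cluster on chromosome 12 (chr12:109726822-109726896, plus strand), ran from 543 over a median of 1224 to 2251 CPM in controls and from 1295 over 1694 to 2425 CPM after swim. The lowest value was control library 1, and the ranges of the remaining controls and of the swim libraries overlapped. The log2 fold change was 0.38 ± 0.15 (unadjusted p = 0.022, adjusted p = 0.513), 0.30 without control library 1 and 0.10 with 2 surrogate variables in place of block.

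**Figure D1:**
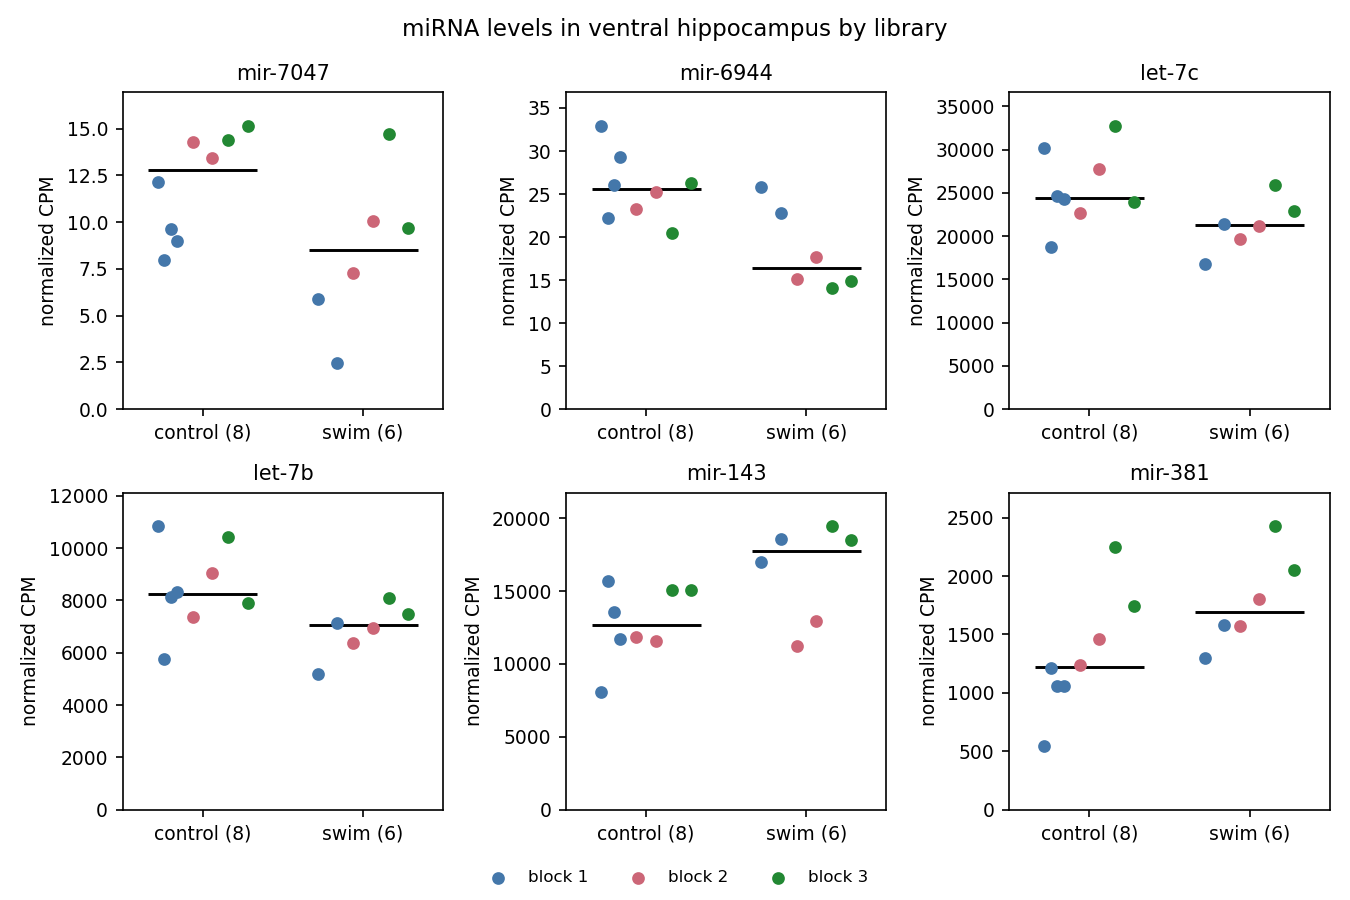
Levels of 6 named miRNAs in the 14 vHC libraries, in normalized CPM on axes that start at 0; points are libraries coloured by processing block and lines are group medians. The groups overlap in every panel, with medians of 12.8 and 8.49 for mir-7047 and of 12704 and 17773 for mir-143 in control and swim.

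When counts were summed by family, 279 of 793 families were tested, 0 were called (smallest adjusted p = 0.440) and 28 had an unadjusted p under 0.05, which is 10.0% of those tested, 14 (5.02%) in each direction. DESeq2 called 0 with 30 under that limit. The 8 with the smallest p were mir-7047, mir-6944, mir-5129, mir-143, mir-203, mir-381, mir-410 and mir-873. Each of these rested on a single tested miRNA, since no other member was abundant enough or known. Of the 42 families with at least 2 tested members, 25 lay above 0 and 17 below, against 50.2% above and 49.8% below among all 279, and 4 had an unadjusted p under 0.05.

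The let-7 family, known for promoting differentiation and for its abundance in the adult brain, was the most abundant. Its summed level ran from 128636 over a median of 148470 to 188787 CPM in controls and from 119880 over 142985 to 165985 CPM after swim, so 5 of the 6 swim libraries lay within the control range. The log2 fold change was −0.15 ± 0.10 (unadjusted p = 0.134, adjusted p = 0.543). It was −0.10 without control library 1 and turned to 0.014 with all 26 libraries and surrogate variables. That setting is close to the design of the study, which however tested the condition and interaction terms together rather than the vHC value alone. The members of the family were not alike in value. let-7b (−0.33), let-7c (−0.30), let-7d (−0.30), let-7e (−0.26), let-7k (−0.26) and let-7a (−0.20) lay below 0, whereas let-7f (−0.06), let-7g (−0.08), let-7i (0.03), let-7j (0.03) and mir-98 (0.08) lay near it, the last group including the member with another seed. In all, 8 of 11 members were below 0, where 49.9% of all 375 miRNAs were, and 4 of them had an unadjusted p under 0.05, against 5.60% of all 375 in that direction. The median over members was −0.20 where that over all 375 miRNAs was 1.58e-05. These members were singled out after their values were seen, and their near-identical sequences can share reads.

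let-7c showed the values behind this most clearly. It ran from 18734 over a median of 24441 to 32745 CPM in controls and from 16754 over 21319 to 25969 CPM after swim. The lowest swim library lay below all controls and the highest above most of them, and the log2 fold change was −0.30 ± 0.11 (unadjusted p = 0.017, adjusted p = 0.513; −0.35, −0.30 and −0.20 in blocks 1 to 3). For let-7b the medians were 8229 CPM and 7047 CPM and for let-7e 5156 CPM and 4598 CPM in control and swim. Without control library 1, the values of let-7c, let-7b, let-7d and let-7e were −0.25, −0.26, −0.21 and −0.24. With all 26 libraries and surrogate variables, let-7c stood at −0.15 and let-7e at −0.10.

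The other abundant families lay between −0.16 and 0.11. The mir-30 family had a log2 fold change of 0.11 ± 0.08, mir-29 of 0.11 ± 0.10, mir-218 of 0.08 ± 0.09, mir-124 of 0.06 ± 0.09 and mir-181 of 0.01 ± 0.10. On the lower side were mir-26 at −0.03 ± 0.09, mir-9 at −0.05 ± 0.10, mir-128 at −0.10 ± 0.11 and mir-125 at −0.16 ± 0.11. Among smaller families, all 3 members of mir-376 lay above 0 (median 0.40, 2 at an unadjusted p under 0.05), as did 6 of 6 of mir-467 (median 0.24). These medians were 0.32 and 0.18 without control library 1. All 5 tested members of the family of mir-17 and mir-93, regulators of the cell cycle, lay below 0 (median −0.11). These 3 families were named after their values were seen.

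**Figure D2:**
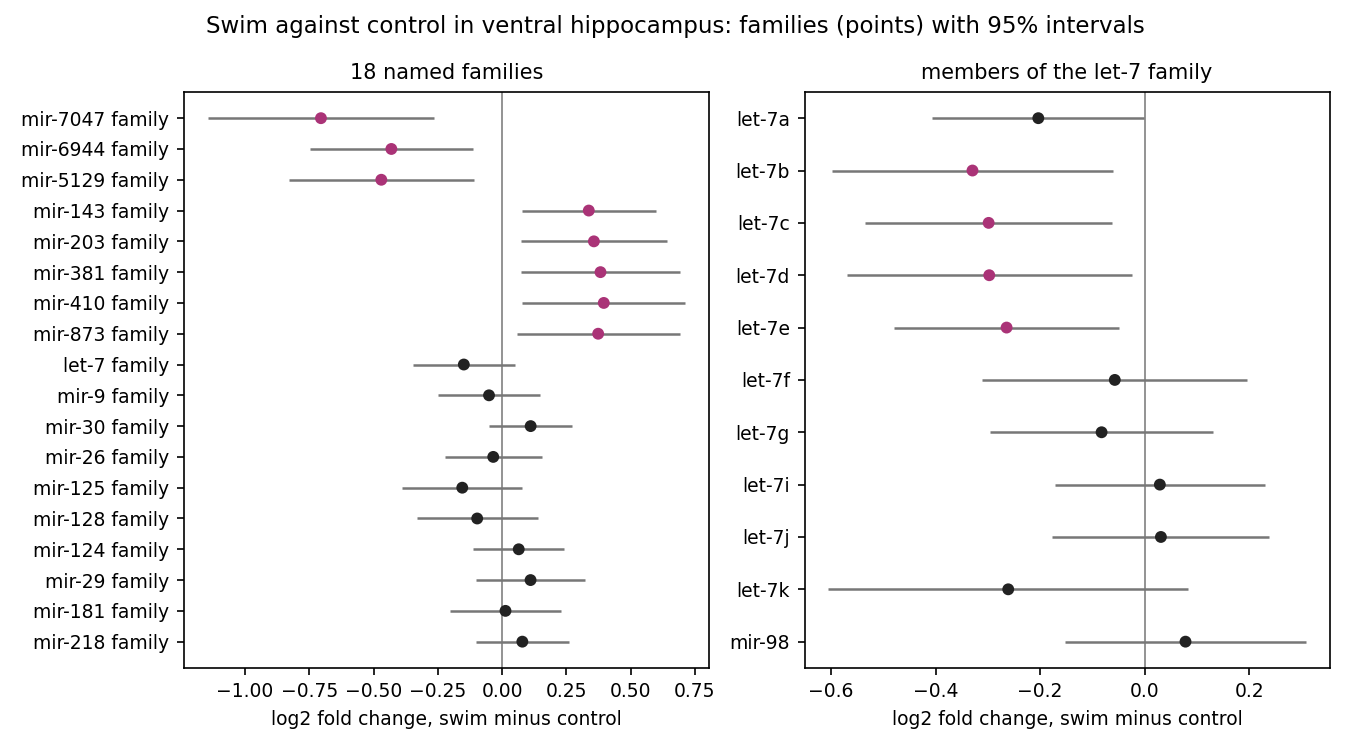
Log2 fold change between swim and control (points) with its 95% interval (bars) for the 18 named families and for the 11 members of the let-7 family; purple points have an unadjusted p under 0.05. The 8 families with the smallest p lie away from 0 and the 10 most abundant ones between −0.16 and 0.11, while let-7b, let-7c, let-7d and let-7e lie between −0.33 and −0.26.

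Clusters were formed from precursors on the same strand with at most 10 kb to the next. Of 808 clusters, lone precursors included, 278 were tested, 0 were called (smallest adjusted p = 0.5001) and 23 had an unadjusted p under 0.05, or 8.27% of those tested, 4 (1.44%) higher and 19 (6.83%) lower. DESeq2 called 0 with 25 under that limit. Among the 48 clusters with at least 2 tested members, 26 lay above 0 and 22 below, against 46.8% above and 53.2% below among all 278, and 3 had an unadjusted p under 0.05. In 21 of the 48 all members had the same sign. Many of the 48 held only 2 tested members, and no share by chance was computed for this count. As a separate measure, the summed value had the same sign in the 3 blocks for 41.4% of all 278.

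Of the 6 such clusters with the smallest p, 4 held a let-7 precursor. The remaining such clusters with a let-7 precursor were let-7f-2 to mir-98 and mir-100 to let-7a-2. Each had 1 member above and 1 below 0, with medians over members of −0.00143 and −0.0847. The cluster from let-7c-2 to let-7b (chr15:85706603-85707403, plus strand), in exons of the long noncoding RNA Lncppara, ran from 15305 over a median of 20698 to 26980 CPM in controls and from 14057 over 17688 to 20060 CPM after swim. All 6 swim libraries lay below the control median. Its log2 fold change was −0.33 ± 0.11 (unadjusted p = 0.00762, adjusted p = 0.5001), and −0.28 without control library 1. The cluster from mir-99b to mir-125a in Spaca6 (chr17:17830188-17830879, plus strand) had a log2 fold change of −0.23 ± 0.11, with let-7e at −0.28, mir-125a at −0.26 and mir-99b at −0.08. For the cluster from let-7d to let-7a-1 (chr13:48536012-48538272, minus strand) the value was −0.20 ± 0.10. In the cluster from mir-99a to let-7c-1 on chromosome 16, at −0.16 ± 0.08, the members differed in sign, with let-7c-1 at −0.31 and mir-99a at 0.08. The copies let-7c-1 and let-7c-2 give the same mature RNA, so their counts can share reads.

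The cluster from mir-145a to mir-143 had a log2 fold change of 0.30 ± 0.11 (unadjusted p = 0.013, adjusted p = 0.5001), which followed mir-143, since mir-145a itself stood at 0.02.

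The activity-regulated cluster of mir-212 and mir-132 (chromosome 11) lay on the lower side. mir-132 ran from 4555 over a median of 6563 to 8233 CPM in controls and from 4913 over 5525 to 6118 CPM after swim, within the control range throughout. Its log2 fold change was −0.18 ± 0.11 (unadjusted p = 0.129, adjusted p = 0.565), with −0.44, 0.12 and −0.12 in the 3 blocks. mir-212 had medians of 1499 CPM and 1428 CPM and a log2 fold change of −0.09 ± 0.10. Both cover mature RNA together with any precursor reads, so a change in the precursor alone could not be seen separately.

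The large imprinted cluster on chromosome 12 that runs from mir-379 to mir-3072 (chr12:109709060-109747960, plus strand), a group of miRNAs expressed mainly in brain and placenta, had all 36 of its members tested. Its summed level had medians of 52210 CPM in controls and 51260 CPM after swim and a log2 fold change of 0.09 ± 0.07 (unadjusted p = 0.258, adjusted p = 0.609). The group medians, which ignore block, and the fitted value thus differed in sign. Single members spread far more than the sum, from −0.36 for mir-667 to 0.55 for mir-679, with 24 above and 12 below 0 where 52.5% of all 438 entries lay below. At an unadjusted p under 0.05 were 6 above 0, namely mir-679 (0.55), mir-376a (0.39), mir-376b (0.39), mir-410 (0.38), mir-381 (0.37) and mir-300 (0.29), and 1 below, mir-485 (−0.29), against 3.88% above and 5.25% below 0 of all 438 precursor entries tested (9.13% in all). Of these, mir-376b, mir-376a, mir-300 and mir-381 follow each other in the cluster. The members were named after their values were seen.

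The neighbouring group from mir-770 to mir-136, which precedes it on the same strand, stood at −0.04 ± 0.06 with 9 of 11 members below 0. The cluster from mir-466m to mir-669h on chromosome 2, in which 50 of 71 precursors were tested, stood at 0.03 ± 0.15, with 18 members above and 32 below 0. These precursors are repeats of near-identical sequence, so their counts are uncertain. On the X chromosome, the cluster from mir-450b to mir-322 stood at 0.03 ± 0.10 as a sum although 6 of its 7 members were above 0, because the abundant mir-322 (0.04) and mir-351 (−0.19) outweighed mir-450a-1 (0.50), mir-450a-2 (0.48) and mir-542 (0.41).

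**Figure D3:**
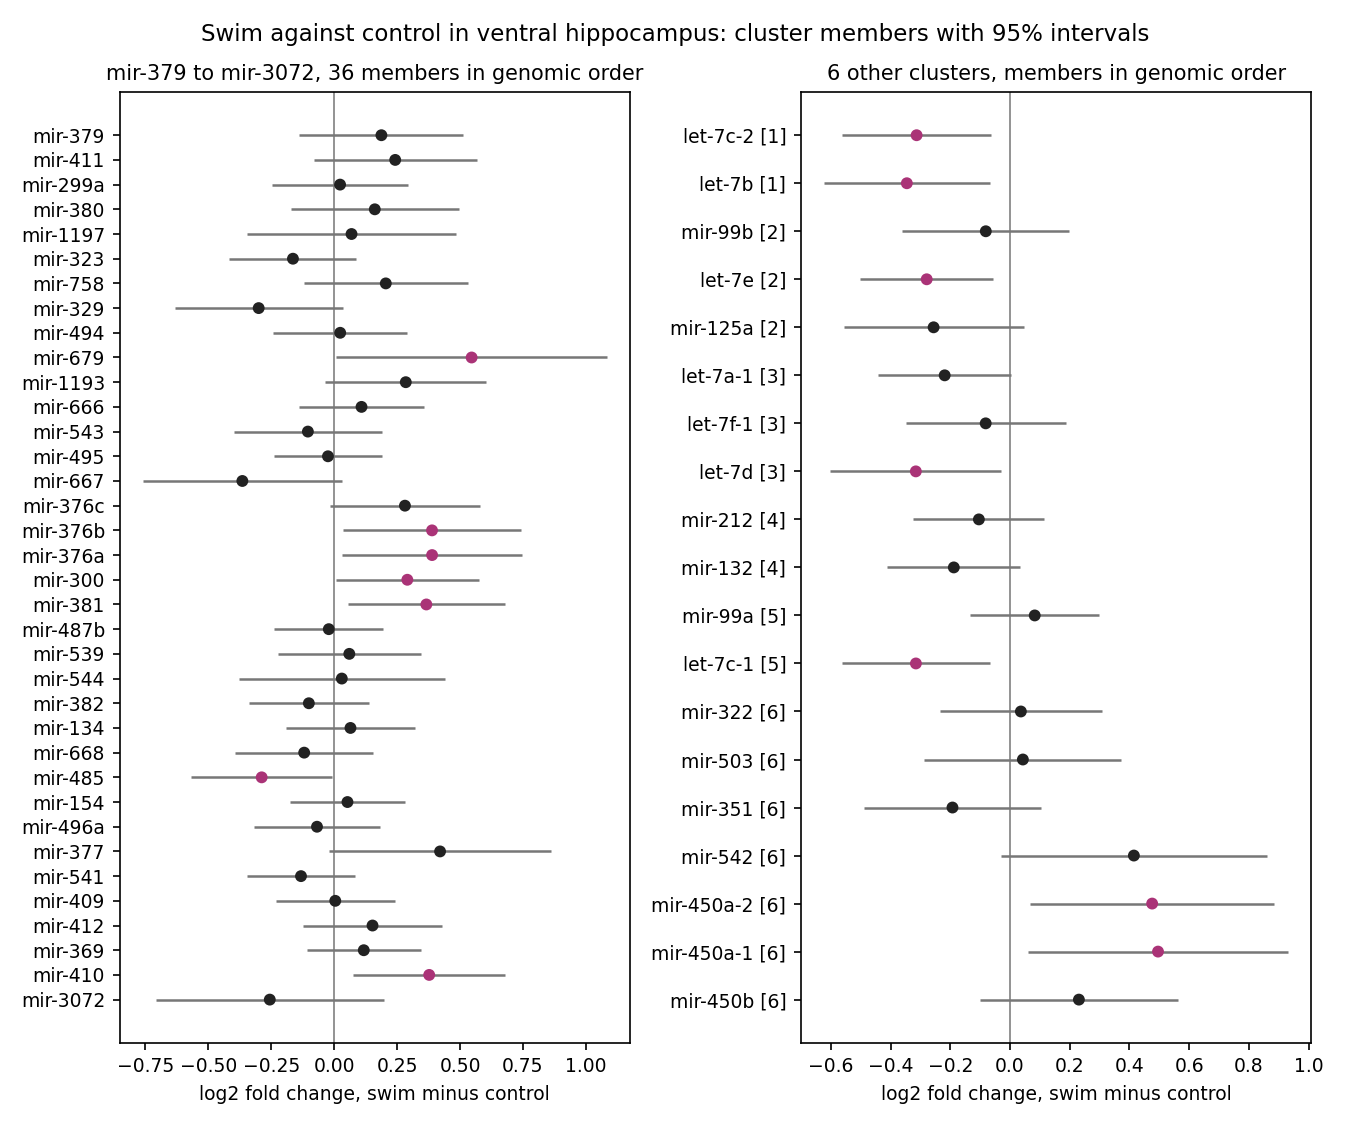
Log2 fold change (points) with its 95% interval (bars) for single precursors in genomic order, in the mir-379 to mir-3072 cluster (left) and in 6 other named clusters marked by a number in brackets (right); purple points have an unadjusted p under 0.05. Neighbours such as mir-376b and mir-381 lie at 0.39 and 0.37, and the let-7 members of the clusters shown lie between −0.35 and −0.08.

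Lists of miRNAs with known roles were compared by counts and medians. Of 22 miRNAs tied to neuronal activity and stress, all tested, 12 lay above and 10 below 0 with a median of 0.032, and 2 had an unadjusted p under 0.05, where 8.80% of all 375 miRNAs did. These were mir-183 at 0.41 ± 0.18, with medians of 10.8 CPM in controls and 9.09 CPM after swim, so that group medians and fitted value differed in sign, and mir-485 at −0.27 ± 0.13, with medians of 1456 CPM and 1174 CPM. Of 6 neuronal miRNAs, 5 were below 0 (median −0.08). Among 5 blood cell miRNAs, 3 were above and 2 below 0. The 2 below were mir-486a (−0.35) and mir-486b (−0.37), overlapping precursors on opposite strands of the same locus whose reads cannot be told apart, and the list summed to 836 to 1064 CPM in controls and 780 to 957 CPM after swim. Choroid plexus miRNAs split 5 to 5 (median 0.01), oligodendrocyte miRNAs 1 to 1, and immune miRNAs 3 to 1 (median 0.16). The muscle and liver list, of which 4 of 6 were tested, split 2 to 2.

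Across miRNAs, the sign of the difference moved with base composition. For 328 miRNAs with mature sequences in the table, the log2 fold change and the mean GC content of the arms had a Pearson r of −0.39 and a Spearman rho of −0.42, given as a description since all points come from the same 14 libraries. The median log2 fold change was 0.11 for the 46 miRNAs up to 40% GC and −0.15 for the 58 above 60%. All of mir-7047 (63.0% GC on average over both arms), mir-6944 (60.9%), mir-877 and mir-484 belonged to the latter and lay below 0. The same range also held miRNAs above 0, such as mir-665 (0.35) and mir-5126 (0.25). Without control library 1 the r was −0.36, and within blocks 1, 2 and 3 it was −0.34, −0.13 and −0.26. In block 1 without control library 1 the r was −0.21, and the median up to 40% GC went from 0.148 to −0.00136. The contrast in level between GC-rich and GC-poor miRNAs also varied among libraries of the same group, and its part in the single values above was not tested.

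**Figure D4:**
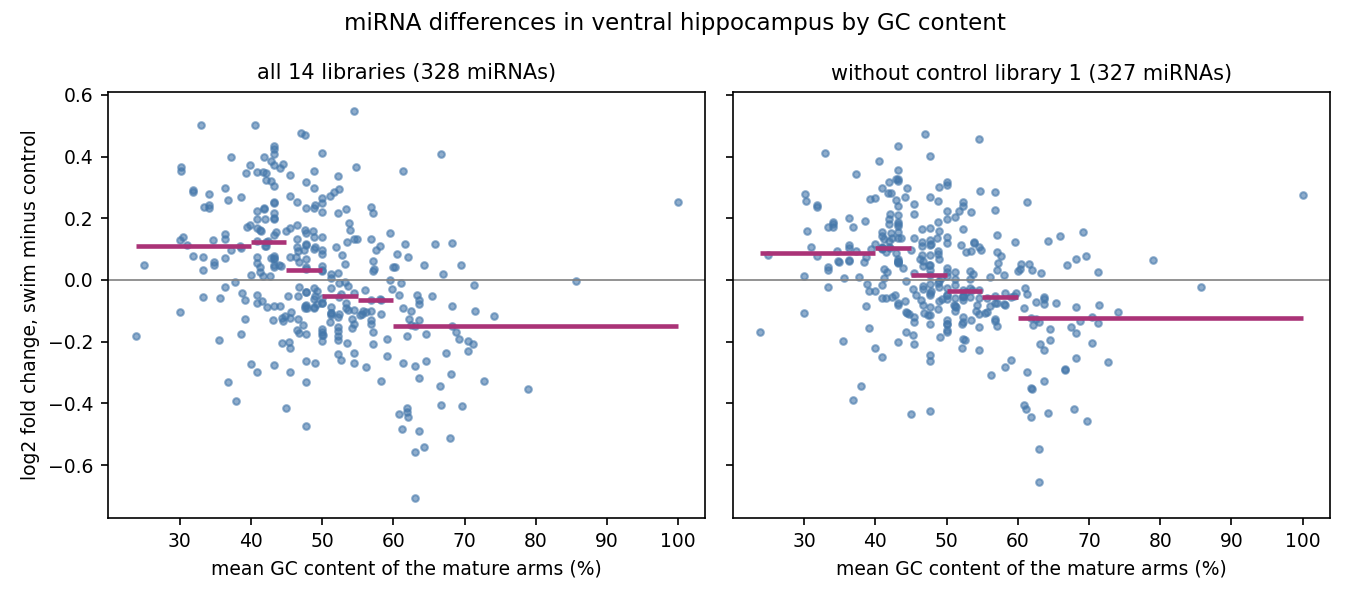
Log2 fold change of each miRNA against the mean GC content of its mature arms, for all 14 libraries (left) and without control library 1 (right); points are miRNAs and purple bars are medians within GC ranges. Medians go from 0.11 up to 40% GC to −0.15 above 60% GC with all libraries, and from 0.087 to −0.12 without control library 1.

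Among tRNA and rRNA entries, 144 of 306 were tested, 0 were called by edgeR's quasi-likelihood test (smallest adjusted p = 0.754) and 7 had an unadjusted p under 0.05, or 4.86% of those tested, 2 (1.39%) higher and 5 (3.47%) lower. DESeq2 called 0 with 7 under that limit. These rows had a larger median standard error than the miRNAs, 0.18 against 0.15. Only 18 of 144 (12.5%) had the same sign in the 3 blocks, against 139 of 375 miRNAs (37.1%). The 10 rRNA entries shifted together by block, as given below, but they are a small part of the 144, so most of these rows are tRNA rows. Rows of a tRNA and its ends share reads, so this share is not a measure of random scatter, and its cause was not tested.

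The 5.8S rRNA, a part of the large ribosomal subunit, had the lowest log2 fold change of all 144 entries. It ran from 319 over a median of 629 to 1402 CPM in controls and from 209 over 338 to 450 CPM after swim. Both swim libraries of block 1 lay far below the 4 controls of that block, whereas in block 3 they lay at the level of the controls. The log2 fold change was −0.92 ± 0.29 (unadjusted p = 0.0128, adjusted p = 0.754), with −1.99, −0.53 and 0.05 within blocks 1 to 3, and −0.81 without control library 1. The second 5.8S entry, which holds reads that did not match the genome, was more abundant, with medians of 6430 CPM and 6470 CPM, and stood at −0.23 ± 0.18. Here too the group medians and the fitted value differed in sign.

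Of the 10 rRNA entries, 9 lay below 0 with a median of −0.24, against 53.5% of all 144 entries. Within blocks 1, 2 and 3, 7, 10 and 0 of the 10 lay below 0. The 28S rRNA, the most abundant at medians of 32264 CPM in controls and 35877 CPM after swim, stood at −0.03 ± 0.22, so medians and fitted value differed in sign. The sign of the 28S value turned under 5 of the settings that kept all libraries. The 4.5S entry stood at −0.47 ± 0.26, 5S rRNA at −0.42 ± 0.33 and 18S rRNA at −0.11 ± 0.23, and the 45S precursor was the exception at 0.14 ± 0.13. Reads not matching the genome stood at −0.39 ± 0.26 for 18S, −0.24 ± 0.25 for 28S and −0.11 ± 0.16 for 45S rRNA. With each library left out in turn, 5S rRNA ran from −0.61 to −0.046, the last without control library 17, and it was −0.094 with all 26 libraries and surrogate variables. The 4.5S entry ran from −0.60 to −0.30, the last without control library 1. Ranges of the unmatched reads were −0.54 to −0.19 for 18S, −0.37 to −0.075 for 28S and −0.31 to −0.071 for 5.8S rRNA.

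As shares of the total, miRNA counts made up 90.7% ± 1.55 (SD, n = 8) in controls and 91.2% ± 1.09 (n = 6) after swim, tRNA 3.93% ± 1.07 and 3.70% ± 0.546, and rRNA 5.39% ± 0.98 and 5.14% ± 0.933, with adjusted p = 0.745 for each by a two-sided exact permutation test over 13 shares. Within rRNA, 28S took 78.2% ± 1.75 in controls and 80.8% ± 2.23 after swim (exact p = 0.0346, adjusted p = 0.338). The 5.8S share was 15.5% ± 2.39 and 12.9% ± 1.76 (exact p = 0.0519, adjusted p = 0.338). These permutations exchanged labels over all 14 libraries and took no account of block. With labels exchanged within block, the exact permutation p was 0.0167 for 28S and 0.0222 for 5.8S (adjusted p = 0.144 for both). As 28S and 5.8S take most of the rRNA counts, a rise in 1 share goes with a fall in the other, so they are not separate results. The 5.8S share holds matching and unmatched reads together. In block 2 both differences went the other way, at −0.84 points for 28S and 0.83 points for 5.8S.

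Fragments of tRNA gave no call either. Whole tRNA entries split into 35 above and 43 below 0 of 78 tested, 5′ ends into 23 and 15 of 38, 3′ ends into 3 and 3 of 6, and ends with the added CCA into 5 and 7 of 12. The share of 5′ ends in all tRNA counts was 38.6% ± 2.92 in controls and 40.7% ± 2.44 after swim (exact p = 0.179, adjusted p = 0.465), a difference of 2.12 points made of 4.28, −0.55 and 1.29 points in the 3 blocks. End counts are contained in those of their tRNA, so these rows are not independent of it.

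The 3′ end of tRNA-Asp-GTC had the smallest p of the ends. It ran from 12.9 over a median of 15.03 to 19.7 CPM in controls and from 7.94 over 11.2 to 14.8 CPM after swim, with 3 swim libraries below all controls. The log2 fold change was −0.49 ± 0.17 (unadjusted p = 0.0128, adjusted p = 0.754). All 6 tested Asp rows lay below 0, among them its CCA end at −0.44 ± 0.19 and the reads not matching the genome at −0.34 ± 0.17, but the abundant whole entry tRNA-Asp-GTC stood at −0.02 ± 0.11. On the other side, the CCA end of tRNA-Phe-GAA had medians of 2.92 CPM and 3.97 CPM and a log2 fold change of 0.80 ± 0.29, at a level of few reads per library, and the 5′ end of tRNA-Ile-AAT stood at 0.32 ± 0.14. The 5′ end of tRNA-Ala-CGC stood at −0.29 ± 0.16.

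By amino acid, 6 of 6 Ile rows and 4 of 4 Lys rows lay above 0 (medians 0.21 and 0.28), and 12 of 13 Leu rows below it (median −0.19). In each of these groups, whole tRNAs and their ends share reads, and the groups were named after their values were seen. Of whole tRNAs, the smallest p were those of reads not matching the genome for tRNA-Arg-CCG (−0.84 ± 0.34) and tRNA-Val-TAC (−0.39 ± 0.17), followed by tRNA-Thr-AGT (0.25 ± 0.13). For tRNA-Arg-CCG the values within blocks were −1.03, 0.50 and −1.10, and the medians were 8.71 CPM and 4.57 CPM. tRNA-Gly-ACC stood at 0.23 ± 0.13. The most abundant tRNAs, tRNA-Gly-GCC (0.07 ± 0.20), tRNA-Glu-CTC (−0.12 ± 0.16), tRNA-Gly-CCC (0.04 ± 0.16) and tRNA-Lys-CTT (0.25 ± 0.16), overlapped widely between the groups.

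**Figure D5:**
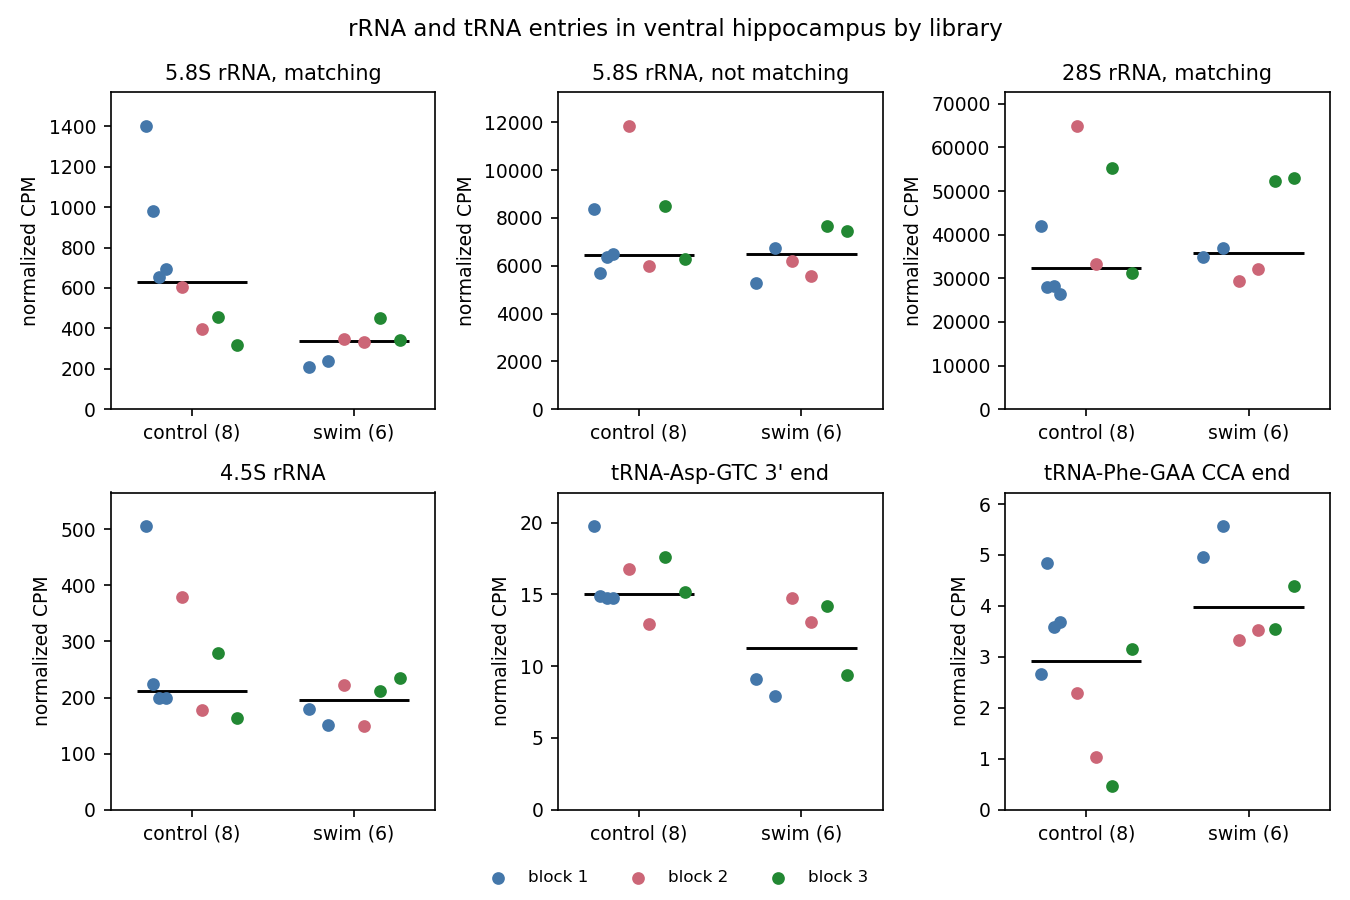
Levels of 4 rRNA entries and 2 tRNA ends in the 14 vHC libraries, in normalized CPM on axes that start at 0; points are libraries coloured by processing block and lines are group medians. The 5.8S rRNA medians are 629 in controls and 338 after swim, with the widest gap in block 1, while the 28S medians are 32264 and 35877.

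Whether these values were particular to the vHC was asked with an interaction term over all 26 libraries. The fit treated the libraries as independent, but each of the 12 dHC libraries carries the number after that of a vHC library of the same condition and block, and the labels do not say whether such libraries came from the same mice. Of 401 miRNAs, 297 families, 295 clusters and 158 tRNA and rRNA entries, 0 were called at each level by edgeR's quasi-likelihood test (smallest adjusted p = 0.787, 0.658, 0.720 and 0.506), with 17, 13, 16 and 5 at an unadjusted p under 0.05. In dHC alone the number called was 0 as well. The let-7c value of −0.30 in vHC stood beside −0.16 in dHC, and mir-143 at 0.33 beside 0.14, each from a fit of its own region. In the joint fit, the difference in log2 fold change, dHC minus vHC, was 0.17 for let-7c (95% interval −0.26 to 0.60) and −0.20 for mir-143 (−0.65 to 0.26). For 5.8S rRNA, −0.92 in vHC stood beside 0.29 in dHC, with an interaction of 1.26 (0.41 to 2.12; unadjusted p = 0.00821, adjusted p = 0.648). The 5.8S rRNA had the lowest vHC value of its entries, so its choice itself favours a gap to dHC. Its vHC value was also uneven across blocks, as given above, and this interaction was added after seeing the data.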

How the data were processed

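The deposited table holds expected counts, as reads shared between entries were divided by the authors' pipeline, and 29.497% of its values are not whole. Per the methods and the labels, the authors removed adapters (cutadapt), counted duplicates with 1 molecular identifier a single time, and assigned reads with Sports to miRNA precursors, tRNAs, tRNA ends and rRNAs of GRCm38, and kept reads that did not match the genome in rows of their own. The table has 1360 entries, 1054 of them miRNAs, of which 1044 were placed by name in GENCODE vM21 or RefSeq.

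Counts were summed over precursor copies, families (same seed or number) and clusters (at most 10 kb between neighbours), rounded and tested with edgeR 4.0.16 (R 4.3.3) by its quasi-likelihood test after TMM scaling and filterByExpr (minimum count 10, minimum total 15), with swim and block as terms. The test used 8 control and 6 swim libraries and Benjamini-Hochberg adjustment at 0.05. tRNA and rRNA entries were tested together on the total of all entries. Levels are TMM-normalized CPM and were scaled anew at each level of summing. Differences within blocks are of log2(CPM + 0.5). Shares and totals were compared by two-sided exact permutation over 3003 exchanges of labels without regard to block. The alternative used 540 exchanges within block. The fit was tested on simulated data. Interactions used all 26 libraries, and that of tRNA and rRNA entries was added after seeing the data.

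Text members were the 10 miRNAs with the smallest p and the 5 most abundant, 8 and 10 families, 6 and 4 clusters (the 4 with most tested members), 5 tRNAs, 5 tRNA ends and 5 abundant tRNAs, every rRNA, list members with an unadjusted p under 0.05, and mir-132 and mir-212. Members, families and lists were chosen with earlier results of these data known. Alternatives were DESeq2 1.42.0, its size factors, TMMwsp, other filters and library sizes, no covariate, 2 surrogate variables (sva 3.50.0), all 26 libraries, other families and clusters, and each library left out. Pairs of replicates differed by more than sampling noise. Intervals of depth cover counting error only.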

Additional observations from a re-analysis of the deposited data

Results flagged for a closer look

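Among 172 sets of values (named items in 1 group), 6 held a library at the end of the range that was separated from the rest of its group, where about 1 in 20 is expected by chance. Control library 1 was the lowest for the mir-873 family, at 200.5 CPM with the next control at 368.1, and the highest for the 4.5S share of rRNA, at 0.83% with the next at 0.5715%. Without control library 1 the mir-873 family stood at 0.30 rather than 0.37 on the log2 scale. Control library 7 was the highest for the mir-203 family, at 228.4 CPM against 171.3 in the next. For the 5.8S rRNA reads that do not match the genome, control library 17 reached 11840 CPM, where the next control had 8478. Swim library 15 reached 26370 CPM for the mir-181 family, with the next at 20650, and swim library 5 reached 850.9 CPM for the cluster from mir-466m to mir-669h, with the next at 520.6.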

How the results depend on the processing

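No alternative gave a call for swim in vHC at any level or for the interaction. In all, 776 values under other settings and 1241 with a library left out kept their direction and their side of the threshold, and 35 and 33 changed sign. These totals include numbers of calls, which have no direction. They also include the permutations within block, where the difference is the same by construction, so the totals overstate how stable the values were. The counts at an unadjusted p under 0.05 were less stable. For miRNAs, 33 became 74 of 902 without the filter, 14 with no covariate, 7 with 2 surrogate variables and 21 with surrogate variables over 26 libraries. Leaving out swim library 5 gave 9 and control library 7 gave 59, and the same libraries gave 9 and 41 families and 9 and 39 clusters. For tRNA and rRNA entries, 7 became 2 without swim library 5 and 19 without control library 17. Depth limits the miRNAs under about 10 counts a library, and the cause of these shifts was not tested.

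The changes of sign are given as log2 fold changes. With no covariate, mir-124 stood at −0.0011, the mir-181 family at −0.041, mir-466m to mir-669h at −0.14, 28S rRNA at 0.040 and 45S rRNA reads not matching the genome at 0.0030. With 2 surrogate variables in place of block, the values were −0.019 for mir-124, 0.016 for mir-125b, 0.0019 for mir-212, 0.010 for the mir-125, −0.084 for the mir-181 and −0.0025 for the mir-218 family, −0.045 for mir-379 to mir-3072, −0.072 for mir-450b to mir-322, −0.076 for mir-466m to mir-669h, 0.0015 for 18S and 0.049 for 28S rRNA. All 26 libraries with surrogate variables came close to the design of the study, but were read here for the vHC value alone. The values were then −0.026 for mir-124, 0.059 for mir-125b, 0.016 for mir-128, 0.030 for mir-26a and 0.0054 for mir-9. For families they were 0.014 (let-7), −0.0081 (mir-124), 0.047 (mir-125), 0.060 (mir-128), 0.10 (mir-26) and 0.072 (mir-9). In that design, mir-466m to mir-669h stood at −0.16, mir-770 to mir-136 at 0.032, 18S rRNA at 0.027, 28S at 0.050 and unmatched 45S at 0.015. Without the filter, mir-770 to mir-136 stood at 0.0046, and 28S rRNA at 0.0012 with DESeq2 and with its size factors.

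With each library left out in turn, ranges that crossed 0 were −0.23 to 0.070 for 18S, −0.14 to 0.15 for 28S, −0.18 to 0.021 for unmatched 45S rRNA, −0.063 to 0.075 for the mir-181 and −0.077 to 0.023 for the mir-26 family, −0.11 to 0.018 for mir-26a, −0.022 to 0.082 for mir-450b to mir-322, −0.061 to 0.16 for mir-466m to mir-669h, −0.026 to 0.12 for tRNA-Gly-CCC and −0.022 to 0.15 for tRNA-Gly-GCC. The difference in the 45S share of rRNA ran from −0.025 to 0.11 points, that in the 5S share from −0.16 to 0.050 points, and that in log10 total miRNA counts from −0.0030 to 0.053. No paired analysis was possible because the groups share no replicate number.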
